A study of Mus musculus with 6 samples.

Results

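The matrix metalloproteinases (MMPs) and their tissue inhibitors (TIMPs) were examined in RENCA cells with and without forced expression of the water channel AQP1. The 10 members were picked by gene symbol from the 78298 genes of the deposited table: Mmp2, Mmp3, Mmp9, Mmp10, Mmp13, Mmp14, Mmp19, Timp1, Timp2 and Timp3. RENCA is an established mouse renal adenocarcinoma line. The 3 oe-AQP1 samples were transduced with the lentivirus Lenti-AQP1, in which the ubiquitin C promoter drives mouse Aqp1, and the 3 oe-NC samples with the empty control virus Lenti-NC. Selection of both groups in 2 μg/mL puromycin lasted 14 days, and cells were harvested near confluence without any other agent, so every sample carries a lentiviral backbone and the resistance cassette. No untransduced parental cells are among the 6 samples. The 3 samples of a group are called biological replicates, but the labels do not say whether they came from separate transductions, so the p-values measure the spread between these samples, which may be technical.

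MMPs are zinc-dependent proteases that cut collagens, laminins and other proteins of the extracellular matrix. They are made as inactive proenzymes, and TIMPs block the active enzymes by binding their catalytic site. TIMP2 has a further role, since its complex with MMP14 at the cell surface brings proMMP2 to its activation. In tumors the balance of these proteins is studied for its part in invasion, and transcript levels do not measure protease activity.

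The samples held between 18385714 and 21920899 expected read counts. Counts of Aqp1 ran from 25 to 45 under Lenti-NC and from 7713 to 8545 under Lenti-AQP1. Replicate 1 of oe-NC stood apart from its group. The chi-square per gene, which is about 1 for sampling noise alone, was 9.47 and 11.05 between it and the other oe-NC samples, against 1.71 to 2.04 for the other pairs within a group. Without it Timp1, Mmp2, Mmp10, Mmp14 and Mmp19 did not pass the test used here either, and the genes named below with an FDR under 0.05 kept that call. Adamts4 and Adamts5 were not part of that check. Values without oe-NC replicate 1 are given for some genes only, and a gene without such a value may also have shifted. Of 9 epithelial and kidney markers 8 were tested, and 4 of them were lower in oe-AQP1 cells. Their summed level was 722 to 750 CPM (counts-per-million) under Lenti-AQP1 and 843 to 935 CPM under Lenti-NC, with Krt8, Krt18 and Pax8 present and Epcam at 0. Markers of cell types known as sources of MMPs and TIMPs were mostly absent. The defining macrophage gene Adgre1 was at 0 and Ptprc averaged 0.0498 CPM, although the sum of 7 macrophage markers was 59.0 to 62.2 CPM under Lenti-AQP1 and 69.3 to 71.3 CPM under Lenti-NC, carried by Cd68, Lyz2, Cd14 and Csf1r. Among 6 fibroblast markers, Thy1 was at 0, and Pdgfra, Dcn, Lum and Col3a1 each averaged under 1 CPM. Pdgfrb carried a sum of 44.0 to 45.2 CPM under Lenti-AQP1 and 33.5 to 39.1 CPM under Lenti-NC. At an FDR under 0.05, the 1 fibroblast marker tested was higher in oe-AQP1 cells, and 2 of 4 macrophage markers tested were lower. Over all genes tested, 16.0% were higher and 16.6% lower at this FDR. The 5 neutrophil markers summed to at most 0.506 CPM and the 5 endothelial markers to at most 1.73 CPM in any sample. The part of these marker differences in the results below was not tested. In bulk RNA, fewer cells of a kind and less RNA per cell cannot be told apart.

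Of the 10 members, 7 had enough counts to be tested, and 2 of them differed between the groups at a false discovery rate (FDR, the Benjamini-Hochberg adjusted p of limma-voom over 15522 genes) under 0.05. Timp2, the most abundant member, was lower in oe-AQP1 cells by a log2 fold change (log2FC) of -0.49, that is 0.71 times the control level. Timp3 was higher by a log2FC of 0.96 from a low level. No member passed both thresholds of the study (FDR under 0.05 and an absolute log2FC above 1), which define a differentially expressed gene (DEG). The MMPs tested, Mmp2, Mmp10, Mmp14 and Mmp19, did not pass the FDR threshold. Over all genes tested, 16.0% were higher and 16.6% lower at this FDR, and as DEGs 4.39% were higher and 0.844% lower, 5.23% in all. The members' shares, 1 of 7 in each direction, lie near that background. The median log2FC was 0.04 over the 7 members and 0.00 over all genes.

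**Figure D1:**
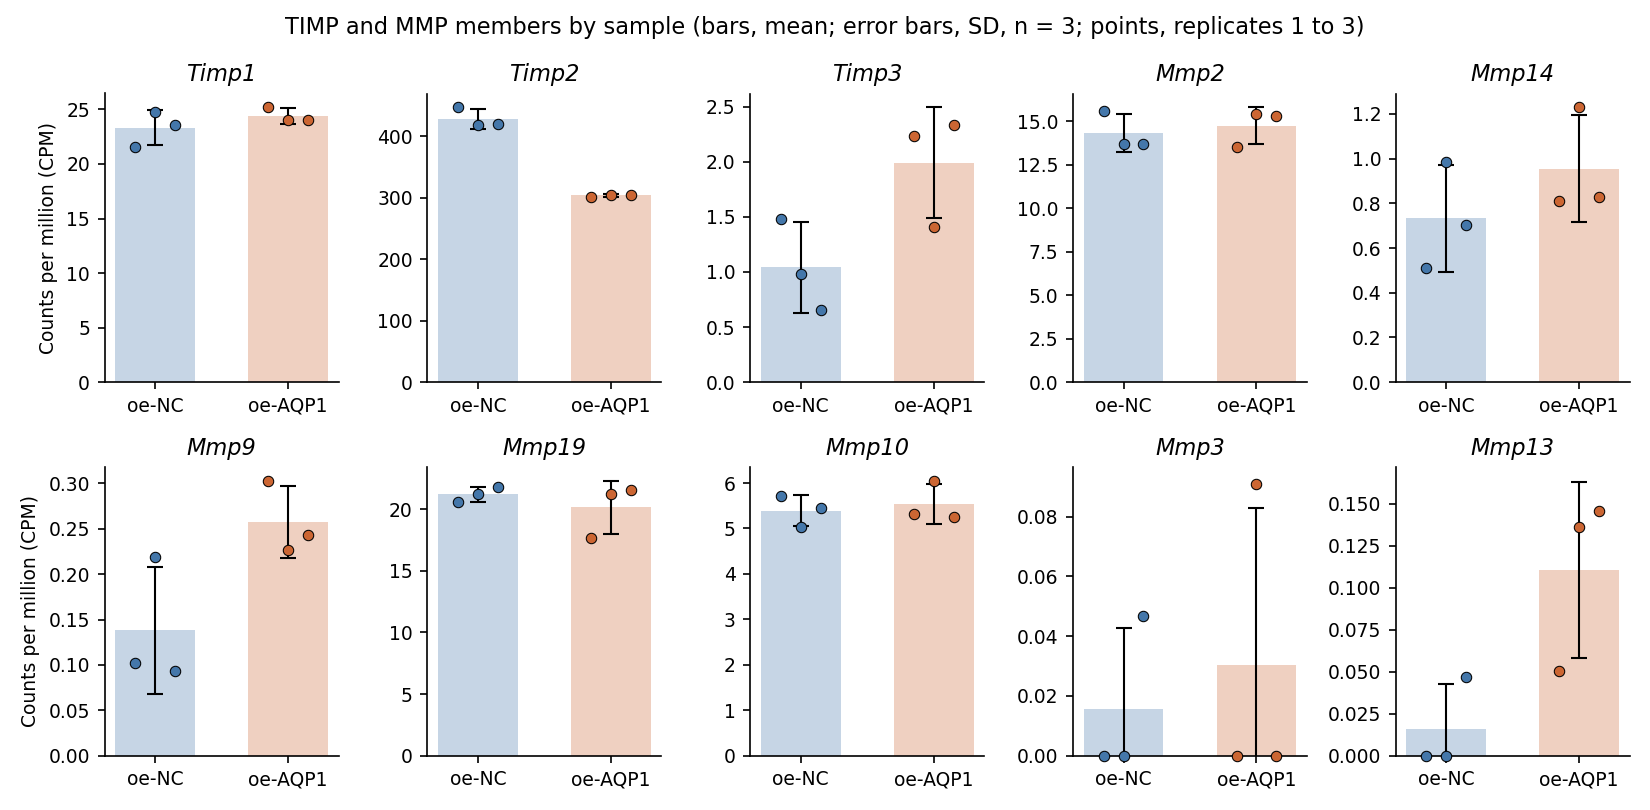
Level in CPM of each member (y axis, linear from 0) in oe-NC and oe-AQP1 samples (x axis). Points are replicates 1 to 3, bars are means and error bars are SD (n = 3). Timp2 lies at 418 to 447 CPM in oe-NC and 301 to 305 CPM in oe-AQP1 samples, while the groups overlap for Timp1, Timp3, Mmp2, Mmp14, Mmp19, Mmp10 and Mmp3.

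Timp2 (ENSMUSG00000017466) occupies positions 118191887 to 118246566 of chromosome 11 (GRCm39, reverse strand). Its levels were 301, 305 and 305 CPM in oe-AQP1 samples 1 to 3 and 447, 418 and 419 CPM in oe-NC samples 1 to 3. All oe-AQP1 samples thus lay below all oe-NC samples, as was the case for 23.8% of the genes tested (47.3% when both directions are counted). With 304 ± 2.42 CPM against 428 ± 16.2 CPM (SD, n = 3 each), limma-voom gave a log2FC of -0.49 (standard error 0.04, 95% confidence interval -0.58 to -0.41, FDR = 4.53e-06). Without oe-NC replicate 1 it was -0.46 (FDR = 3.07e-13), and whichever sample was dropped it lay between -0.51 and -0.46. Tested singly by exact permutation of the samples, Timp2 had a two-sided p = 0.1, below which 3 against 3 cannot go and which Mmp9 and Mmp13 had too. The oe-NC sample with the highest Timp2 was replicate 1, the library that stood apart.

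Timp2 shares 332 exonic bases with Cep295nl, a gene on the same strand inside the Timp2 locus. Cep295nl counts ran from 117 to 136 under Lenti-AQP1 and from 142 to 176 under Lenti-NC (log2FC = -0.44, standard error 0.11, FDR = 0.0106). Without oe-NC replicate 1 its log2FC was -0.37. Reads from the shared bases cannot be assigned to either gene. Timp2 counts ran from 5948 to 6708 and from 7642 to 8929, far above the counts of its neighbor.

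Timp3 (ENSMUSG00000020044) occupies positions 86136236 to 86185371 of chromosome 10 (forward strand). Its product binds to the matrix and inhibits ADAM17 and several ADAMTS proteases besides MMPs. The levels were 2.23, 1.41 and 2.33 CPM in oe-AQP1 samples 1 to 3 and 1.48, 0.985 and 0.657 CPM in oe-NC samples 1 to 3. The groups overlapped, since oe-AQP1 replicate 2 was below oe-NC replicate 1. The means were 1.99 ± 0.505 CPM and 1.04 ± 0.413 CPM (SD, n = 3). The log2FC was 0.96 (standard error 0.32, 95% confidence interval 0.24 to 1.68, FDR = 0.0449), just inside the FDR threshold and just under the fold threshold. Pooled over the 3 samples of a group, 123 counts stood against 61, a ratio of 1.92 after scaling, with an exact 95% interval of 1.4 to 2.65 that covers counting error only. The call rested on single libraries. The FDR was 0.124 without oe-AQP1 replicate 1 (log2FC = 0.86), 0.138 without oe-AQP1 replicate 3 (log2FC = 0.83), 0.103 without oe-NC replicate 2 (log2FC = 0.96) and 0.168 without oe-NC replicate 3 (log2FC = 0.65). Without oe-AQP1 replicate 2 (log2FC = 1.20, FDR = 0.0228) or oe-NC replicate 1 (log2FC = 1.25, FDR = 0.00854) Timp3 passed both thresholds. Timp3 and Syn3, a gene on the opposite strand, share 1734 exonic bases. Syn3 had at most 5.13 counts in a sample, while the expected counts of Timp3 were not whole numbers in the oe-AQP1 samples.

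**Figure D2:**
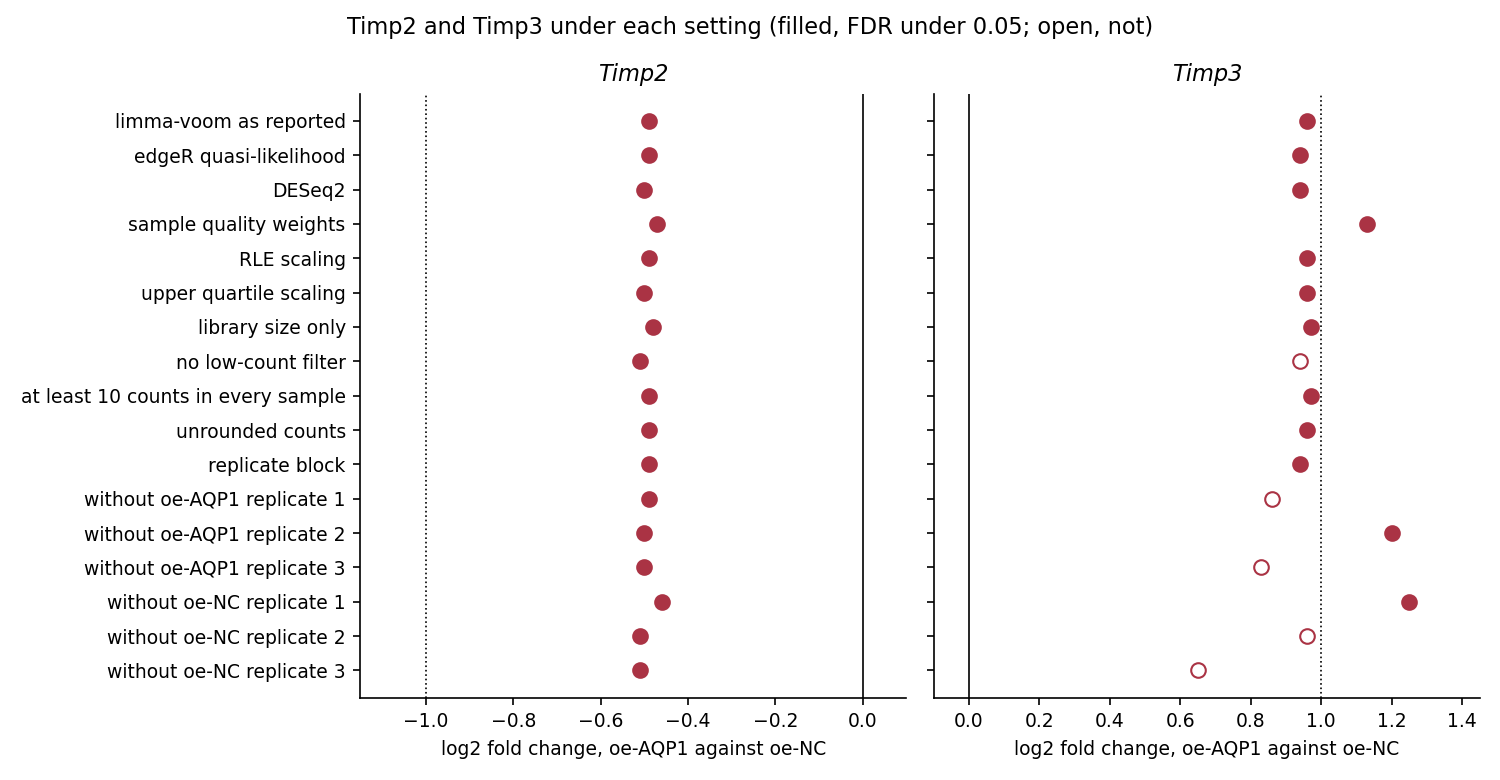
Fold change on the log2 scale, oe-AQP1 over oe-NC (x axis) for Timp2 and Timp3 under each processing setting (y axis), where filled points have an FDR under 0.05 and open points do not, and dotted lines mark an absolute log2FC of 1. Timp2 stays between -0.51 and -0.46 and is filled throughout, while Timp3 ranges from 0.65 to 1.25 and is open in 5 settings.

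Timp1 (ENSMUSG00000001131, chromosome X, 20736316 to 20740976), a soluble inhibitor of most secreted MMPs, had 25.2, 24.0 and 24.0 CPM in oe-AQP1 and 21.6, 24.8 and 23.6 CPM in oe-NC samples. The groups overlapped. The log2FC was 0.07 (standard error 0.07, FDR = 0.49), and the 95% interval of the fold change ran from 0.943 to 1.16. The gene overlaps Syn1 on the opposite strand, with which it shares 0 exonic bases.

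Mmp2 (ENSMUSG00000031740, chromosome 8, 93553902 to 93580049) encodes a gelatinase, which cuts denatured collagen and collagen IV of basement membranes. Its levels were 13.5, 15.4 and 15.3 CPM in oe-AQP1 and 15.6, 13.7 and 13.7 CPM in oe-NC samples. The ranges were nearly the same, and the log2FC was 0.04 (standard error 0.09, FDR = 0.755), with a 95% interval of the fold change from 0.899 to 1.18. Mmp2 shares 860 exonic bases with the lncRNA gene Gm45472 on the opposite strand, which had 1 to 20.91 expected counts in a sample. The expected counts of Mmp2 were mostly not whole numbers. Mmp14 (ENSMUSG00000000957, chromosome 14, 54668878 to 54682821) encodes the membrane-bound protease that activates proMMP2 together with TIMP2. It had 0.809, 1.23 and 0.827 CPM in oe-AQP1 and 0.509, 0.985 and 0.704 CPM in oe-NC samples, and the groups overlapped. Its log2FC was 0.41 (standard error 0.31, FDR = 0.357), and 0.19 without oe-NC replicate 1. With 10 to 27 counts in a sample the interval of its fold change, 0.816 to 2.16, was wide, and no difference was detectable at this depth. Mmp14 shares 219 exonic bases with the lncRNA gene Gm62879 on the opposite strand, which had 2 to 8 counts in a sample.

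Mmp19 (ENSMUSG00000025355, chromosome 10, 128626773 to 128636695) encodes a secreted protease of basement membrane proteins and was the MMP member with the highest level. It had 17.7, 21.2 and 21.6 CPM in oe-AQP1 and 20.6, 21.2 and 21.8 CPM in oe-NC samples. The lowest value was that of oe-AQP1 replicate 1, and the other samples lay between 20.6 and 21.8 CPM. The log2FC was -0.08 (standard error 0.08, FDR = 0.533), with a 95% interval of the fold change from 0.834 to 1.08. Its sign rested on oe-AQP1 replicate 1, without which it was 0.01. Mmp19 shares 1084 exonic bases with Tmem198b on the opposite strand, which had 282.52 to 359.96 expected counts in a sample, and the expected counts of Mmp19 were not whole numbers. The use of strand in counting is not given in the sources used here, so reads in that stretch cannot be told apart.

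**Figure D3:**
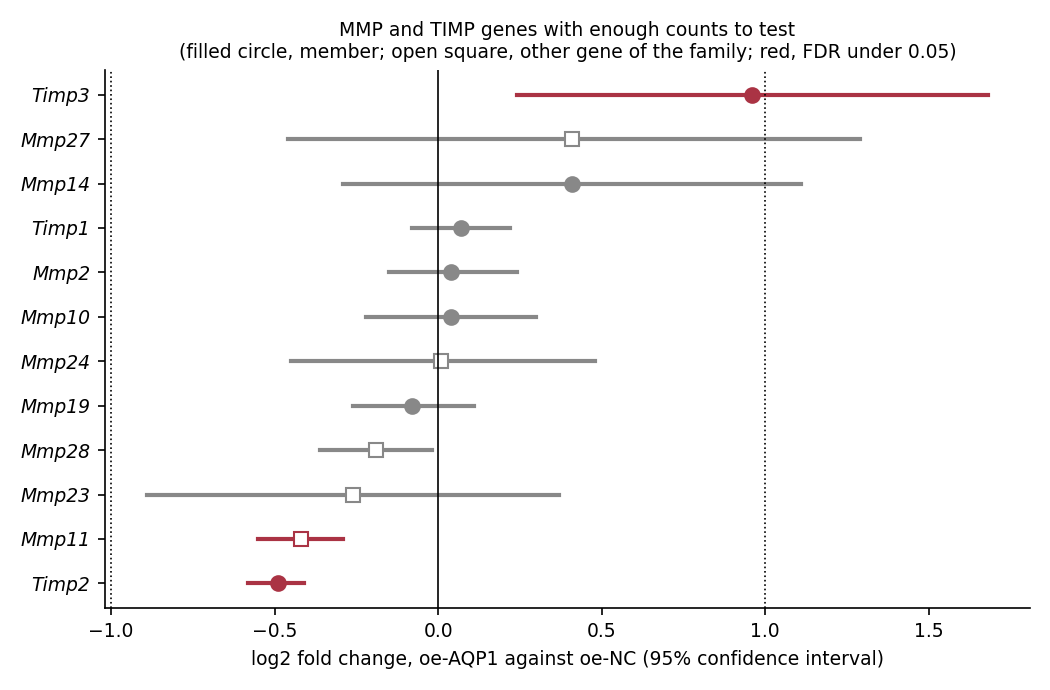
Fold change on the log2 scale, oe-AQP1 over oe-NC (x axis, point) with its 95% confidence interval (line) for the 7 members and 5 other MMP genes that were tested. Timp2, Mmp11 and Timp3 have an FDR under 0.05, and the widest intervals belong to Mmp14, Mmp23, Mmp27 and Timp3, which have few counts.

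Mmp10, Mmp3 and Mmp13 belong to a cluster of 10 MMP genes that lie side by side on chromosome 9 of GRCm39, from 7272514 to 7699587, with 0 other protein-coding genes among them. In RENCA cells Mmp10 had 665.99 and Mmp27 133 expected counts over the 6 samples, and the next gene of the cluster, Mmp12, had 29.29. Mmp10 (ENSMUSG00000047562, 7502353 to 7510241) and Mmp3 (ENSMUSG00000043613, 7445822 to 7455975) encode stromelysins, which cut proteoglycans and laminin and activate other proMMPs. Mmp10 had 5.31, 6.05 and 5.25 CPM in oe-AQP1 and 5.71, 5.03 and 5.44 CPM in oe-NC samples. The groups overlapped, with a log2FC of 0.04 (standard error 0.12, FDR = 0.837) and a 95% interval of the fold change from 0.858 to 1.23. Its sign turned with the samples left out (-0.03 to 0.08).

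Mmp3 had 0, 2.01 and 0 expected counts in oe-AQP1 and 0, 0 and 1 in oe-NC samples. The Mmp3 and Mmp10 transcripts were 81.8% identical over 1366 aligned bases, and their longest identical run was 104 bases, so a read inside that run could come from either gene. The values of oe-AQP1 replicate 2, 2.01 for Mmp3 and 132.99 for Mmp10, were fractional. No difference in Mmp3 was detectable at this depth. Mmp13 (ENSMUSG00000050578, 7272514 to 7283331), a collagenase of fibrillar collagens, had 1, 3 and 3 counts in oe-AQP1 and 0, 0 and 1 in oe-NC samples. The pooled counts were 7 against 1, a ratio of 6.65 with an exact 95% interval of 0.855 to 300, which includes 1.

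Mmp9 (ENSMUSG00000017737, chromosome 2, 164780439 to 164797771), the other gelatinase, had 6, 5 and 5 counts in oe-AQP1 and 2, 4 and 2 in oe-NC samples. The pooled counts were 16 against 8, a ratio of 1.90 with an exact 95% interval of 0.767 to 5.13. Scaled to CPM, the oe-AQP1 samples lay above the oe-NC samples for Mmp9 and Mmp13, as they did for 23.5% of the genes tested, but these ranges are a few reads apart. When the low-count filter was dropped, so that 34240 genes were tested, the log2FC was 0.86 (FDR = 0.41) for Mmp9, 1.81 (FDR = 0.0974) for Mmp13 and 0.15 (FDR = 0.932) for Mmp3, and none passed the threshold.

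The promoters differed between these genes in their letters. They are shown for the cluster genes, which span the detected Mmp10 and the nearly silent Mmp3 and Mmp13, and for the 2 inhibitors called. Each sequence is the stretch of 150 bases before the RefSeq transcription start on GRCm38.p6, read 5′ to 3′ on the gene's strand. That is another build than the GRCm39 positions above. Capitals mark a TGANTCA element (AP-1), a TATAAA element (TATA box) or a GGGCGG element or its complement (GC box), each searched on both strands of the 250 bases before the start. The stretches are chr9:7502192-7502341 for Mmp10, chr9:7445672-7445821 for Mmp3 and chr9:7272364-7272513 for Mmp13, all on the forward strand, chr11:118355412-118355561 for Timp2 on the reverse strand and chr10:86300262-86300411 for Timp3 on the forward strand.
Mmp10: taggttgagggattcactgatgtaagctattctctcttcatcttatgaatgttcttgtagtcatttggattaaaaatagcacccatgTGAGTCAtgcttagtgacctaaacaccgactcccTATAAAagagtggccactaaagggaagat
Mmp3: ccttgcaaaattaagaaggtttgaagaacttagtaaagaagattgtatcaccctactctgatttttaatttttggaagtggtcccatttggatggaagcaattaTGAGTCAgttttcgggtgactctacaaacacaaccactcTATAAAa
Mmp13: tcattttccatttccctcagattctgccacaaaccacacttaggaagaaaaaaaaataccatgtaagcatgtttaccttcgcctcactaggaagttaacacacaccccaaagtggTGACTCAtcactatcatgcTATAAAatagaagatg
Timp2: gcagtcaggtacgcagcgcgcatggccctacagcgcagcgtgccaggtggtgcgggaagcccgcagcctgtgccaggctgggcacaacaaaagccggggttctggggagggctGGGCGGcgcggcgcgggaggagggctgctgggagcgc
Timp3: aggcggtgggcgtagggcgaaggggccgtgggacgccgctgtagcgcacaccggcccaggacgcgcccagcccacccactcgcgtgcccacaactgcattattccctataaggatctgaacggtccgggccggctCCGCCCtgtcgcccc

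RefSeq promoters were found for 7 of the 10 members. The entries for Mmp2, Mmp9 and Mmp19 were not among them. Mmp3, Mmp10 and Mmp13 each held 1 AP-1 element and 1 TATA box, a pair found together in 1.21% of 32851 promoter windows of this length. In Mmp10 the AP-1 element began 63 bases before the start and the TATA box 29 bases before it. The distances differed in the others, at 46 and 7 bases in Mmp3 and 35 and 16 bases in Mmp13. They depend on the annotated RefSeq start, and whether transcription begins there in these cells was not tested. Alone, the AP-1 element was in 6.75% and the TATA box in 12.4% of windows. The Timp1, Timp2, Timp3 and Mmp14 windows held neither and had at least 1 GC box, as 32.7% of windows did. The Timp2 and Timp3 windows were GC-rich, at 68.0% and 65.6%, against a median of 52.4% over all windows and 37.2% to 40.4% in the 3 cluster genes. Those of Timp1 and Mmp14 lay near the median, at 54.4% and 55.2%. The same pair of elements thus stood before Mmp10, at 92 to 132.99 counts in a sample, and before Mmp3 and Mmp13, at no more than 3. A match of letters is a description and not a binding site.

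To compare levels between genes, counts were divided by exonic length and scaled to TPM (transcripts-per-million). Timp2 was highest, at 274 ± 3.40 TPM (SD, n = 3) in oe-AQP1 and 372 ± 24.0 TPM in oe-NC cells, and it lay above 97.3% of the genes tested. Timp1 followed with 44.1 to 51.7 TPM over the 6 samples, then Mmp19 with a median of 23.3 TPM and a highest value of 24.7 TPM, Mmp2 with 14.7 to 17.7 and Mmp10 with 11.2 to 14.2 TPM. The sample ranges of these neighbors in the order did not overlap. Timp3 (0.307 to 1.15 TPM) and Mmp14 (0.33 to 0.803 TPM) overlapped each other, as did Mmp9, Mmp13 and Mmp3 in sequence, all of them at or below 0.328 TPM.

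The RNA of the 3 TIMP members exceeded that of the 7 MMP members in every sample. The TIMP members summed to 325 ± 2.07 TPM (SD, n = 3) in oe-AQP1 and 419 ± 22.6 TPM in oe-NC cells, of which Timp2 made up 84.3% and 88.8%. The MMP members summed to 53.8 ± 4.71 TPM and 51.8 ± 2.49 TPM. The ratio of the TIMP sum to the MMP sum was 6.66, 5.67 and 5.89 in the oe-AQP1 samples and 8.14, 8.18 and 7.94 in the oe-NC samples. The ratio was lower in every oe-AQP1 sample than in any oe-NC sample. The TIMP sums of the groups did not overlap, while the MMP sums did. Timp2 alone stood at 274 TPM in oe-AQP1 and 372 TPM in oe-NC cells. The lower ratio thus mostly restates the Timp2 difference given above and is not a separate result. The size of the ratio and of its difference depended on the genes summed. Over all 23 MMP and 4 TIMP genes of the family, a set added after the data were seen, the ratio was 2.99, 2.77 and 2.85 in the oe-AQP1 samples and 3.33, 3.45 and 3.49 in the oe-NC samples. On the log2 scale the difference of the ratio was -0.42 for the members and -0.25 for the whole family. No test was made of these sums.

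**Figure D4:**
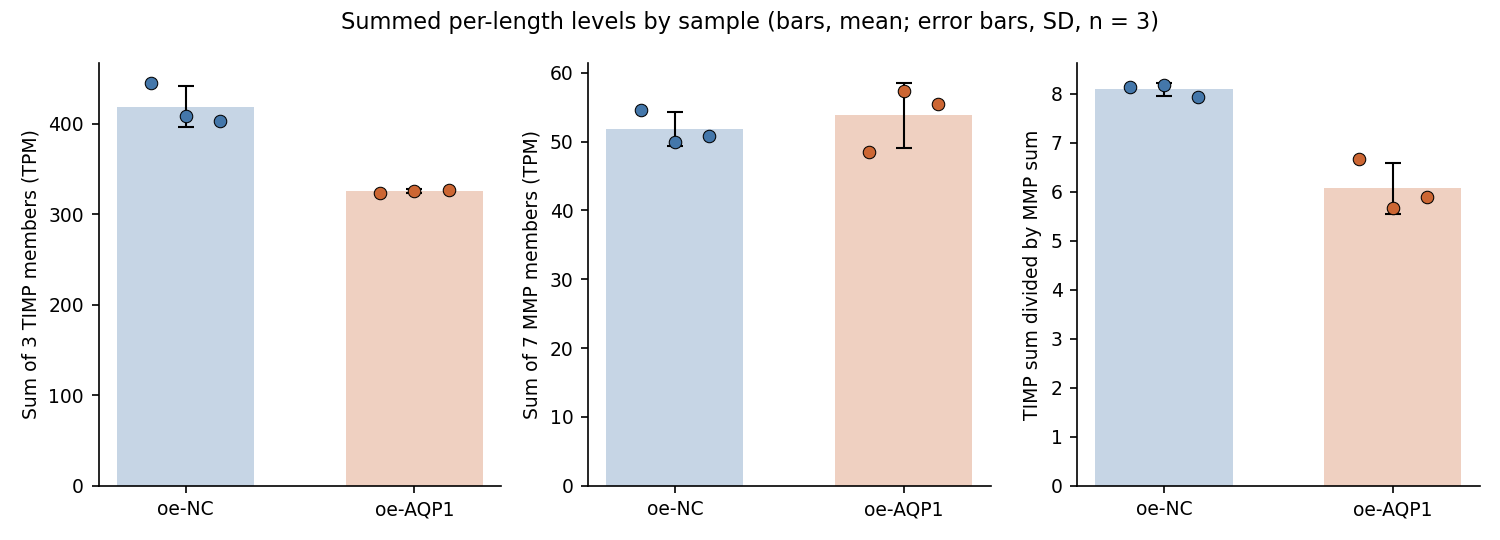
Summed TPM of the 3 TIMP members (left), of the 7 MMP members (middle) and their ratio (right), on linear y axes from 0, in oe-NC and oe-AQP1 samples. Points are samples, bars are means and error bars are SD (n = 3), and the TIMP to MMP ratio lies at 7.94 to 8.18 in oe-NC and 5.67 to 6.66 in oe-AQP1 samples.

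Among the 17 other MMP and TIMP genes of the family, 5 had enough counts to be tested, and 5 had no count in any sample. Mmp11, a stromelysin that is activated inside the cell by furin, was the one gene with an FDR under 0.05. It had 514, 605 and 554 counts in oe-AQP1 and 740, 641 and 741 in oe-NC samples, or 26.8 ± 0.767 CPM against 35.8 ± 1.61 CPM (SD, n = 3). The groups did not overlap, and the log2FC was -0.42 (standard error 0.06, FDR = 0.000387), or -0.38 without oe-NC replicate 1. Over all genes tested, 16.6% were lower at an FDR under 0.05, and 1 of 5 lies near that share. For 23.8% of all genes tested, every oe-AQP1 sample lay below every oe-NC sample. At 39.5 TPM in oe-NC and 30.7 TPM in oe-AQP1 cells, Mmp11 had a higher level per length than any MMP member. Mmp28, which encodes epilysin, had a log2FC of -0.19 (FDR = 0.0802) and passed the threshold without oe-NC replicate 3 (log2FC = -0.26, FDR = 0.0259). Without oe-NC replicate 1 its log2FC was -0.1. The groups did not overlap for Mmp28 either. Mmp23, Mmp24 and Mmp27 had log2FC values of -0.26, 0.01 and 0.41 and did not pass. The median log2FC of the 5 genes was -0.19, against 0.00 over all genes. Timp4, the remaining inhibitor, had at most 2 counts in a sample. Mmp28 was chosen after its values were seen.

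Of 29 ADAM and ADAMTS genes, related zinc proteases that shed membrane proteins or cut proteoglycans, 14 were tested. At an FDR under 0.05, oe-AQP1 cells had less of 7 and more of 4 of them, beside 16.6% lower and 16.0% higher over all genes, with a median log2FC of -0.27. Adam9, a sheddase with 259 ± 0.93 CPM in oe-AQP1 and 350 ± 6.61 CPM in oe-NC cells, fell by 0.44 on the log2 scale (FDR = 4.77e-06). Adam19 had a log2FC of -0.96 (FDR = 0.00112) and passed the fold threshold without oe-AQP1 replicate 1 (-1.01), oe-AQP1 replicate 2 (-1.02) or oe-NC replicate 1 (-1.01). The sheddases inhibited by TIMP3 were named for that role after their values were seen. Adam17, which releases TNF from the cell surface, had a log2FC of -0.30 (FDR = 0.00125), and Adam10 one of -0.25 (FDR = 0.00343). TIMP3 also inhibits several ADAMTS proteases, and the ADAMTS genes tested went both ways. Adamts4 had a log2FC of 0.52 (FDR = 0.00728), Adamts5 one of -0.34 (FDR = 5.1e-05) and Adamts1 one of 0.03 (FDR = 0.631). These genes, too, were named after their values were seen. The higher genes included Adam22, a catalytically inactive family member (log2FC = 0.67, FDR = 0.000621), and Adamts6 (log2FC = 0.61, FDR = 0.000346). Adamts14, a procollagen propeptidase, was a DEG (log2FC = 2.30, FDR = 0.00771) on 11, 26 and 13 counts in oe-AQP1 against 3, 1 and 5 in oe-NC samples.

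Genes that activate MMPs or control them at the cell surface were mostly lower where they passed. Of 21 listed, 10 were tested, and at an FDR under 0.05 the lower ones numbered 7 and the higher ones 1, beside the same shares over all genes, and the median log2FC was -0.27. Lrp1, the endocytic receptor that clears MMPs and their complexes with TIMPs, had 2509.98 to 2681.96 expected counts under Lenti-AQP1 and 4344 to 5748 under Lenti-NC. It was a DEG with a log2FC of -1.03 (standard error 0.08, FDR = 4.15e-06), and fell short of the fold threshold without oe-NC replicate 1 (-0.93). Bsg, the membrane glycoprotein known as an inducer of MMPs, had a log2FC of -0.49 (FDR = 1.48e-06), from 920 ± 19.7 to 653 ± 13.5 CPM. Furin, the protease that removes the propeptide of MMP14 and MMP11, was named for that role after its values were seen. It had a log2FC of -0.37 (FDR = 0.0142), with an FDR of 0.0526 without oe-AQP1 replicate 1 and 0.055 without replicate 3, and the log2FC was -0.24 without oe-NC replicate 1. Plau, the urokinase that generates plasmin, had a log2FC of -0.05 (FDR = 0.533). Pcsk7, a proprotein convertase, was the higher gene (log2FC = 0.17, FDR = 0.0291), and its call was lost in 5 of the 6 fits that left out a sample (FDR from 0.0521 to 0.119), all but the one without oe-NC replicate 1. Reck, a membrane-anchored MMP inhibitor, had at most 4 counts in a sample.

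**Figure D5:**
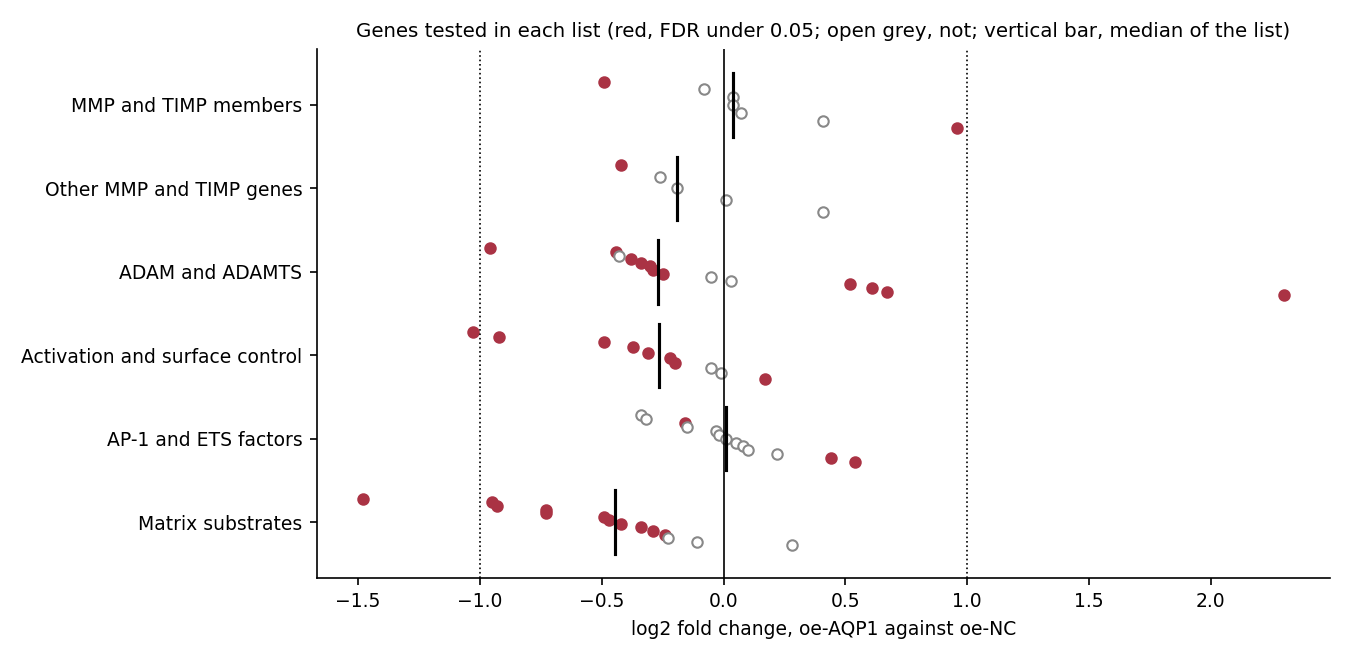
Fold change on the log2 scale, oe-AQP1 over oe-NC (x axis) for each gene tested in the members and 5 other gene lists (y axis), red where the FDR is under 0.05 and open grey where it is not, with the median of each list as a vertical bar. The medians are 0.04 for the members and -0.44 for the matrix substrates.

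The AP-1 and ETS transcription factor families act at MMP promoters, as does RUNX2, a Runt-family factor. Of 14 such genes 13 were tested, and at an FDR under 0.05 the higher ones numbered 2 and the lower ones 1, with a median log2FC of 0.01. These counts lie near or below the shares over all genes, 16.0% higher and 16.6% lower. Fos rose from 28.6 ± 2.82 to 41.6 ± 1.84 CPM (log2FC = 0.54, FDR = 0.00031) and Junb from 86.1 ± 14.7 to 116 ± 2.59 CPM (log2FC = 0.44, FDR = 0.00475). Without oe-NC replicate 1 the log2FC was 0.62 for Fos and 0.58 for Junb. Runx2 was the lower gene, so that limma-voom called no AP-1 or ETS gene lower (log2FC = -0.16, FDR = 0.0288), and its call was lost without any 1 of the oe-AQP1 samples (FDR from 0.0593 to 0.11) and without oe-NC replicate 3 (FDR = 0.0833). Of the members with an AP-1 element shown above, Mmp10 had a log2FC of 0.04, while Mmp3 and Mmp13 had too few counts to be tested. A link between these factors and those genes was not tested.

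Of 22 matrix substrates of MMPs 14 were tested, and at an FDR under 0.05 the lower ones numbered 11 and the higher ones 0. The median log2FC was -0.44. At an unadjusted p under 0.05 1 gene was higher, Col4a2, a chain of basement membrane collagen IV (limma-voom log2FC = 0.28, FDR = 0.0809), and edgeR and DESeq2 also called 0 higher. Col5a2, a chain of fibrillar collagen V, was a DEG with 9 to 19 counts under Lenti-AQP1 and 32 to 46 under Lenti-NC (log2FC = -1.48, FDR = 0.00243). Tnc, encoding tenascin C, fell from 119 ± 3.56 to 62.1 ± 1.47 CPM (log2FC = -0.93, FDR = 1.05e-07), and was -0.91 without oe-NC replicate 1. Hspg2, encoding the basement membrane proteoglycan perlecan, had a log2FC of -0.95 (FDR = 0.00088) and passed the fold threshold without oe-AQP1 replicate 3 (-1.09) or oe-NC replicate 2 (-1.04). Over all genes tested, the share lower at this FDR was 16.6%. Lists and members were chosen with results of these data known, so these counts describe the lists and are not independent support for a direction.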

How the data were processed

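Total RNA of 3 oe-AQP1 and 3 oe-NC samples, all labelled as 1 batch, was sequenced with paired-end reads. The deposited table holds expected counts per gene, made by the authors and not normalized. Whole numbers (within 0.005) made up 71.7% of the members' entries. The submitters' processing notes list fastp, HISAT2, featureCounts and Subread with GRCm38 and mm10, while the study's methods name GRCm39. The tool behind the fractional counts is not given in the sources used here. Of 78298 gene IDs 78168 were found in GENCODE M39, from which GRCm39 positions and exonic lengths were taken. The 2 columns of group means by the authors were not used.

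After rounding to integers, genes were filtered with filterByExpr of edgeR 4.0.16, which kept 15522 genes. They were scaled by TMM, transformed by voom and compared between the groups with limma 3.58.1 in R 4.3.3. CPM and TPM were computed from the same counts. The permutation tests are exact and two-sided on log2(CPM + 0.5). The scripts were tested on simulated data. All members were named, and from each of the 5 other lists the DEGs and up to 2 genes with the highest and 2 with the lowest log2FC past the FDR threshold and a mean of at least 10 counts. One gene that this rule names is not reported here. Members and lists were chosen with earlier results of these data known. Tried as alternatives were DESeq2 1.42.0, the quasi-likelihood test of edgeR, sample quality weights, other scalings, other filters, unrounded counts, a replicate block and each sample left out in turn. Promoter sequences are from RefSeq (GRCm38.p6).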

Additional observations from a re-analysis of the deposited data

How the results depend on the processing

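Of the values recomputed under each alternative, 454 kept their side of the threshold or stayed close to the reported value. Close means within 1.5 times for a count. For the TIMP to MMP ratio it means within the larger group SD of the log2 ratio. Many of these 454 were counts of 0 that stayed at 0. Besides these, 45 counts or ratios moved, and 5 tests of a member, each of Timp3, no longer passed. Calls of single genes in the other lists were lost too, for Pcsk7 and Runx2 as given above and with DESeq2 (FDR = 0.103 and 0.0985) and without the low-count filter (FDR = 0.169 and 0.062), and for Furin as given above. None of the values with a call changed sign. The Timp2 call passed in 6 of 6 fits that left out 1 sample and in 10 of 10 others. Without the low-count filter the members had 0 higher calls (Timp3 FDR = 0.0646), the activation genes 0 higher and the AP-1 and ETS genes 0 lower. With sample quality weights Timp3 was a DEG (1 member, log2FC = 1.13), the activation genes had 0 lower DEGs (Lrp1 at -0.96), the AP-1 and ETS genes 4 higher and 2 lower, and the matrix substrates 1 higher. With at least 10 counts in every sample Adamts14 and Col5a2 were not tested, which left 0 higher DEGs among the ADAM and ADAMTS genes and 0 lower DEGs among the substrates. With DESeq2 the activation genes had 0 higher and the AP-1 and ETS genes 0 lower calls. The AP-1 and ETS genes had 2 lower calls with edgeR and 2 with upper quartile scaling. For other moved counts the cause was not tested. When single samples were dropped, the counts ranged from 0 to 1 for higher members, higher member DEGs, lower ADAM and ADAMTS DEGs, higher activation genes, lower activation DEGs, higher substrates and higher substrate DEGs. They ranged from 1 to 2 for lower genes among the other MMPs and TIMPs and for lower substrate DEGs, from 2 to 4 for higher and from 0 to 2 for lower AP-1 and ETS genes. The other scalings moved the median log2FC of all genes to at most 0.015. Replicate numbers did not pair the samples, since the deviations of same-numbered samples correlated at 0.009, -0.004 and -0.068. With the number as a replicate block, 4825 genes were called instead of 5050, the AP-1 and ETS list had 2 lower calls without Runx2, which lost its call (FDR = 0.0568), and no member's call changed. The log2 difference of the TIMP to MMP ratio was -0.25 over the whole family, an alternative added after the data were seen. Counts under about 10 a sample, as for Mmp3, Mmp9 and Mmp13, limit what can be detected.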
